A study of Mus musculus with 6 samples.

Results

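The genes of fibroblast growth factors (FGFs), their receptors and the receptor-like FGFRL1 were examined in articular cartilage of mice. They were 10 of the 33971 genes in the deposited table, taken by gene name: the ligand genes Fgf1, Fgf2, Fgf7, Fgf9 and Fgf18, and the receptor genes Fgfr1, Fgfr2, Fgfr3, Fgfr4 and Fgfrl1. RNA sequencing had been carried out on 3 libraries of 2-month-old and 3 libraries of 18-month-old mice, and the comparison asks which genes differ between young and aged cartilage. The labels give the genotype of all 6 libraries as WT, with no treatment, and neither a strain nor whether a library holds 1 animal or several. The P-values therefore measure the spread between libraries. Library totals ran from 48171507 to 59085179 counts.

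FGFs are secreted signals that bind receptor tyrosine kinases on the cell surface, with heparan sulfate chains as a cofactor, and the activated receptors pass the signal through the adaptor FRS2 to RAS and MAP kinase, which in turn induces inhibitors such as the Sprouty proteins. In growing cartilage FGFR3 restrains chondrocyte proliferation, and activating mutations of it cause achondroplasia. In articular cartilage FGF2 is stored in the pericellular matrix on perlecan, FGFR1 and FGFR3 are the receptors most studied, and FGF18 is known as an anabolic factor for chondrocytes.

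The libraries differed between the ages in more than the FGF genes, and these differences stand beside every result given here. All 16 chondrocyte markers examined had counts at both ages, but all 16 were lower at 18 months. Their summed share of the counts was between 4.58% and 7.08% in the 2-month libraries and between 0.0635% and 0.17% in the 18-month libraries, and the log2 fold change was −7.20 for Col2a1, the main cartilage collagen, and −5.91 for Acan, the aggrecan gene. The share of 14 neutrophil markers ran from 0.00172% to 0.564% at 2 months and from 4.31% to 4.63% at 18 months, and that of 10 erythroid markers from 0.0247% to 0.663% and from 2.71% to 3.58%. Of these, edgeR called 0 of 14 neutrophil and 3 of 10 erythroid markers at an adjusted p below 0.05 and a log2 fold change beyond 1, whereas 3 and 6 had an unadjusted p below 0.05 and DESeq2 called 11 and 9, all higher. Osteoblast and osteocyte markers took 0.484% to 0.702% and then 0.131% to 0.149%, with 3 of 10 lower and a median log2 fold change of −0.535. Synovial and tendon fibroblast markers took 1.52% to 3.56% and then 0.147% to 0.716%, mostly Prg4, the lubricin gene, which alone took 1.25% to 3.23% and then 0.13% to 0.677%. In that list 6 of 10 genes fell and 2 rose, and those that rose, named after their values were seen, were Thy1 and Pi16. The 2-month replicate 2 had the highest neutrophil and erythroid shares among the young libraries, and 18-month replicate 1 the highest chondrocyte share among the aged ones. The study's methods name male mice, whereas Xist, a gene expressed from the inactive X chromosome, divided the libraries as age did, with 88239 to 102417 counts at 2 months and 11 to 30 at 18 months. The part of cell makeup or of the Xist difference in the FGF results was not tested, and in bulk RNA fewer cells of a type and less RNA per cell cannot be told apart.

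Most FGF genes were lower in aged cartilage. Of the 10 genes, 9 had enough counts to be tested, and 8 of these passed both limits used by the study, an adjusted p below 0.05 and a log2 fold change beyond 1 in either direction. Fgf1, Fgf2, Fgf9, Fgfr1, Fgfr2, Fgfr3 and Fgfrl1 fell, and Fgf7 rose. Among all 20397 genes tested, 36.3% passed the limits, 21.3% as lower and 14.9% as higher, and 51.3% had an adjusted p below 0.05 whatever their fold change. Fgf18 was past the fold limit and not past the p limit, and Fgfr4 was too low to be tested. The 18-month libraries did not overlap the 2-month libraries for any of the 9 genes, 8 lying lower and 1 higher, whereas 68.6% of all genes tested did not overlap, 34.6% lower and 33.9% higher. The median log2 fold change of the 9 genes was −2.70, against −0.02 over all genes tested. Without the libraries that stood apart, 2-month replicate 2 and 18-month replicate 1, all 9 genes were called, 8 lower and 1 higher, in a comparison added after the data were seen, which called 46.8% of all 20907 genes it tested, 23.2% lower and 23.6% higher.

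**Figure D1:**
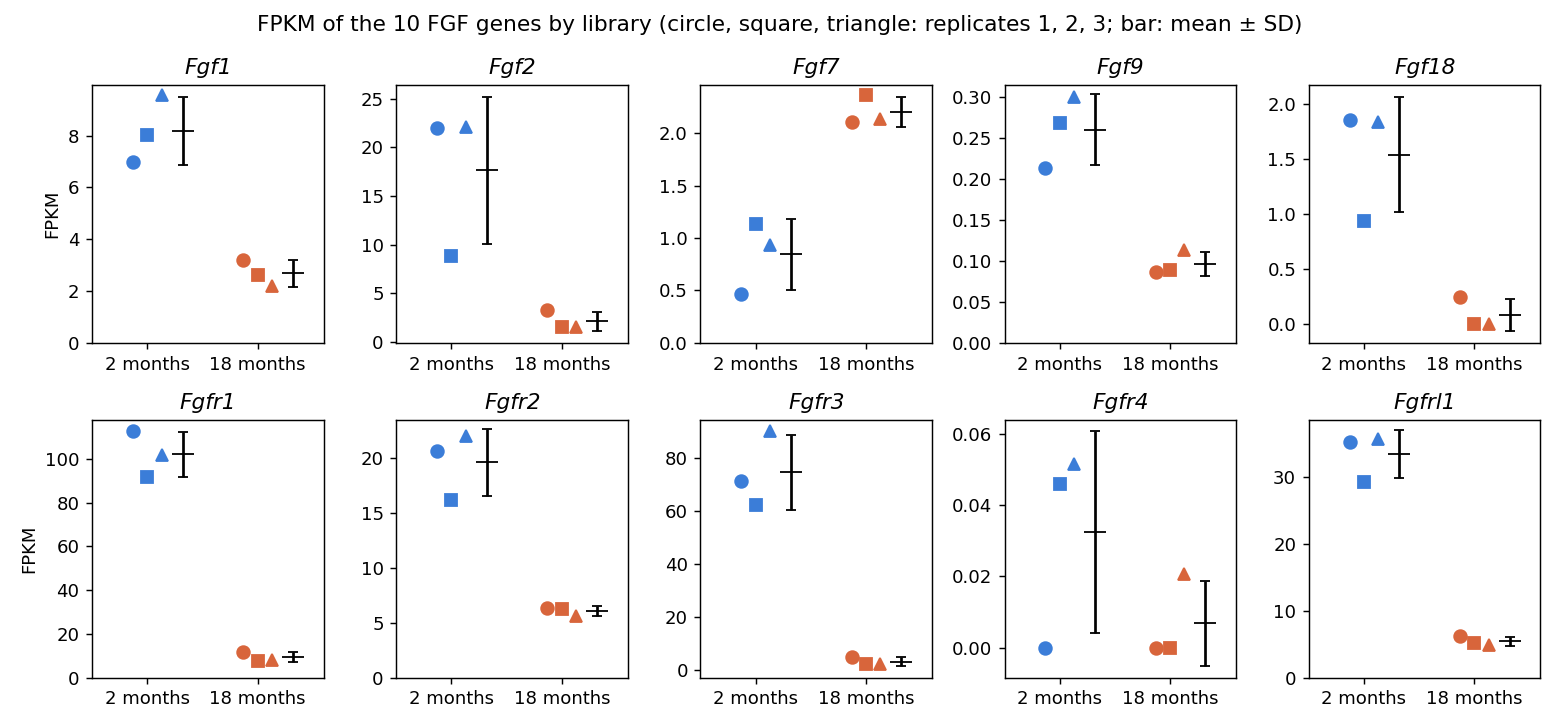
Levels of the 10 FGF genes in each library as FPKM, counts of fragments scaled by transcript length and library size, with a point for each library, grouped by age, and bars for the mean ± SD. The aged libraries lie below the young libraries for each receptor gene tested and for Fgf1, Fgf2, Fgf9 and Fgf18, and above them for Fgf7. Fgfr4 is near 0 at both ages.

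Of the ligands, Fgf2 was the most abundant in 2 of the young libraries by a wide margin and had the largest drop among the ligands that passed both limits. Fgf2 (ENSMUSG00000037225, chr3:37348346-37410108, plus strand) encodes basic FGF, a heparan sulfate-bound ligand that signals through several receptors. Its FPKM was 21.97, 8.858 and 22.07 in 2-month replicates 1, 2 and 3 and 3.265, 1.495 and 1.54 in 18-month replicates 1, 2 and 3. The 2-month replicate 2 was the lowest young library and still lay above every aged library, of which replicate 1 was the highest. The means were 17.6 ± 7.60 and 2.10 ± 1.01 FPKM (SD, n = 3 each), and the fold change on the counts was 9.06-fold lower at 18 months (log2 fold change −3.18, SE 0.53, edgeR adjusted p = 0.0052). Exons of Nudt6 on the opposite strand overlap 640 bases, or 9.44%, of the Fgf2 exons, and Nudt6 had 72 to 159 counts at 2 months and 115 to 162 at 18 months, far below the 3518 to 8407 counts of Fgf2 in young cartilage.

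Fgf1 (ENSMUSG00000036585, chr18:38838673-38929472, minus strand) encodes acidic FGF, a ligand able to bind each of the 4 signalling FGF receptors. It measured 6.971, 8.006 and 9.586 FPKM in the young libraries and 3.218, 2.635 and 2.194 FPKM in the aged libraries. Every young library was above every aged one, and Fgf1 was 3.23-fold lower at 18 months (log2 fold change −1.69, SE 0.20, edgeR adjusted p = 0.00198). The drop of Fgf1 was smaller than that of Fgf2, so their order changed. At 2 months Fgf2 stood first and Fgf1 after it, their ranges overlapping through replicate 2, and at 18 months Fgf1 stood first, with Fgf7 and Fgf2 next and each of these neighbours overlapping.

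Fgf7 was the only one of the 9 tested genes that was higher in aged cartilage. Fgf7 (ENSMUSG00000027208, chr2:126034658-126091185, plus strand) encodes keratinocyte growth factor, a ligand made by mesenchymal cells that acts on the epithelial splice form of FGFR2. Its counts were 84, 217 and 171 at 2 months and 461, 485 and 443 at 18 months, or 0.4708, 1.132 and 0.9306 FPKM and then 2.104, 2.364 and 2.133 FPKM. The aged libraries were close to each other, and the young libraries were spread, with replicate 1 the lowest and replicate 2 the highest. Fgf7 was 2.48-fold higher at 18 months (log2 fold change 1.31, SE 0.34, edgeR adjusted p = 0.0222). The call was lost when 2-month replicate 3 (edgeR adjusted p = 0.0538), 18-month replicate 2 (0.0726) or 18-month replicate 3 (0.0641) was left out, and rescaling FPKM to TPM gave a log2 fold change of 1.01 with a limma adjusted p of 0.0658.

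Fgf9 (ENSMUSG00000021974, chr14:58070547-58112720, plus strand), whose product binds FGFR3 among others and acts in skeletal and joint development, was low at both ages. It had 55, 74 and 79 counts in the young libraries and 28, 27 and 35 in the aged libraries, which is 0.214, 0.2682 and 0.2999 FPKM against 0.08726, 0.08921 and 0.1135 FPKM. The ages did not overlap, and Fgf9 was 2.77-fold lower at 18 months (log2 fold change −1.47, SE 0.33, edgeR adjusted p = 0.014). Without 2-month replicate 3 or 18-month replicate 2 the edgeR adjusted p was 0.0583 or 0.0581.

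Fgf18 (ENSMUSG00000057967, chr11:33117430-33147400, minus strand) was present in each young library and missing from 2 of the aged libraries. Its counts were 122, 65 and 122 at 2 months and 20, 0 and 0 at 18 months. A count of 0 allows up to 0.0543 CPM, counts scaled to the library total, in 18-month replicate 2 and 0.0539 in replicate 3, which covers counting error only, and against a floor of 3 counts in each of these libraries the young mean was at least 38.9-fold higher. The fitted log2 fold change over all libraries was −4.29 (SE 1.49, edgeR adjusted p = 0.0553), which missed the limit. The edgeR adjusted p was 0.00754 without 18-month replicate 1 and 0.0349 without 2-month replicate 2, so that the call depended on either of these libraries.

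Among the genes past both limits, the receptor genes Fgfr3 and Fgfr1 had the largest falls. Fgfr1 (ENSMUSG00000031565, chr8:25513654-25575718, plus strand) encodes the receptor with the highest level at both ages, at 112.7, 91.95 and 101.8 FPKM in the young libraries and 11.87, 7.755 and 8.159 FPKM in the aged libraries. All aged libraries lay far below the young ones, with replicate 1 the highest of them. Fgfr1 was 11.7-fold lower at 18 months (log2 fold change −3.55, SE 0.24, edgeR adjusted p = 0.000833). The antisense gene Gm16159 overlaps 164 of its exon bases and had 59 to 138 counts at 2 months and 0 to 6 at 18 months, against 53141 to 61135 and 4820 to 7884 counts of Fgfr1.

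Fgfr3, the receptor that restrains growth plate chondrocytes, had the largest fold change among the 8 genes past both limits. Fgfr3 (ENSMUSG00000054252, chr5:33721674-33737068, plus strand) had 71.39, 62.48 and 90.2 FPKM at 2 months and 4.823, 1.91 and 2.175 FPKM at 18 months. The aged libraries fell into a higher value in replicate 1 and lower values in replicates 2 and 3, all far below the young libraries. The gene was 26.9-fold lower at 18 months (log2 fold change −4.75, SE 0.46, edgeR adjusted p = 0.00142). The transcript G630022F23Rik on the opposite strand overlaps 998 bases, or 13.9%, of the Fgfr3 exons, and it had 207 to 249 counts at 2 months and 9 to 29 at 18 months.

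Fgfr2 (ENSMUSG00000030849, minus strand, chr7:130162451-133123350 in the table, a span that holds 69 other genes) encodes a receptor with epithelial and mesenchymal splice forms, which the gene counts do not separate. It measured 20.66, 16.17 and 21.98 FPKM in young cartilage and 6.366, 6.268 and 5.574 FPKM in aged cartilage. The aged values were close together, and the drop was the smallest among the tested receptor genes, at 3.43-fold (log2 fold change −1.78, SE 0.18, edgeR adjusted p = 0.00161). Ctbp2, on the same strand, shares 314 of the Fgfr2 exon bases and had 840 to 1057 counts at 2 months and 1131 to 1981 at 18 months, so reads in the shared bases may have been counted for either gene.

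Fgfrl1 (ENSMUSG00000008090, chr5:108692382-108706896, plus strand) encodes a receptor-like protein that binds FGFs and lacks the tyrosine kinase domain. Its FPKM was 35.16, 29.2 and 35.6 at 2 months and 6.187, 5.172 and 4.935 at 18 months. Both ages were tight, and Fgfrl1 was 6.51-fold lower at 18 months (log2 fold change −2.70, SE 0.16, edgeR adjusted p = 0.000749). Fgfr4 (ENSMUSG00000005320, chr13:55152640-55168759, plus strand), a receptor best known from liver, had 0, 10 and 11 counts in the young libraries and 0, 0 and 5 in the aged libraries. At these counts no difference in Fgfr4 was detectable, and without the filter on low counts its log2 fold change was −2.17 (edgeR adjusted p = 0.426).

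**Figure D2:**
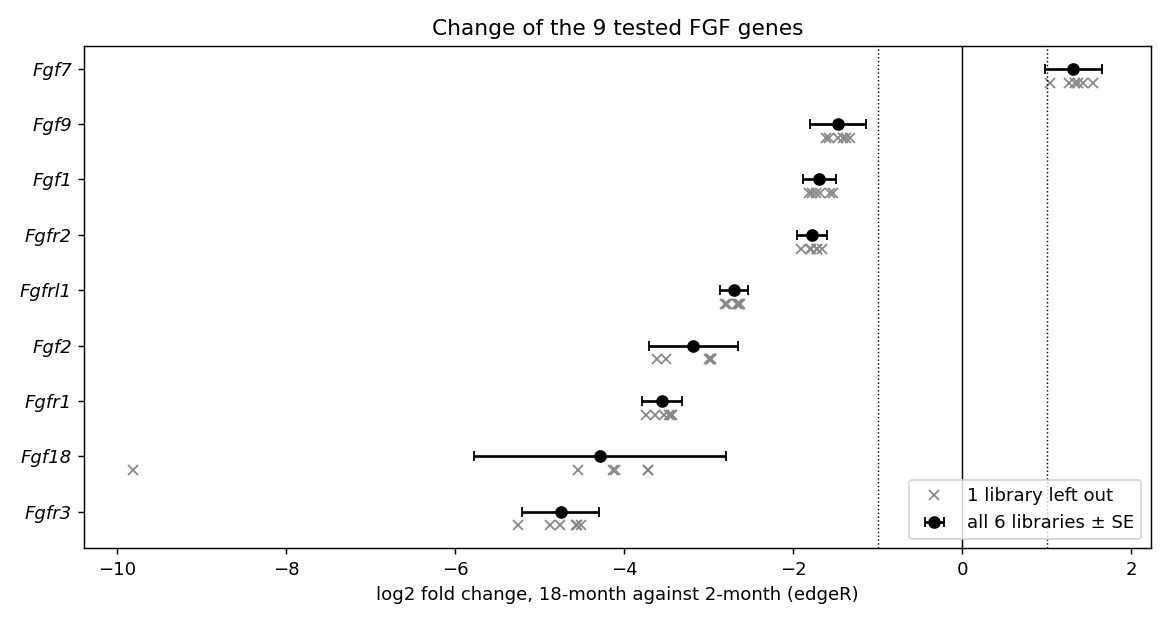
Log2 fold change of the 9 tested FGF genes at 18 months against 2 months from edgeR, with bars of 1 SE and crosses for the fits that each left out 1 library. Fgfr3 lies lowest of the genes past both limits at −4.75, and Fgf7 alone lies above 0. For Fgf18 the cross at −9.81 is the fit without 18-month replicate 1, in which the remaining aged libraries are at 0, so its size depends on the prior count and is no bound.

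The 6 genes Fgf1, Fgf2, Fgfr1, Fgfr2, Fgfr3 and Fgfrl1 remained past both limits in each of 15 other fits, including those that left out a library. Over these fits the log2 fold change lay between −3.92 and −3.35 for Fgfr1 with all libraries and between −3.74 and −3.44 with a library left out. For Fgfr3 the values were −5.18 to −4.31 and −5.25 to −4.51. Rescaling to TPM moved the median log2 fold change over all genes to −0.33, and on that scale 0 of the 9 genes passed the limits as higher and 8 as lower, compared with 1 and 7 on the counts.

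Because the receptors fell unequally, their balance differed between the ages. FPKM is scaled by transcript length, and the levels of different genes were therefore set side by side on this scale. At 2 months the order was Fgfr1, Fgfr3, Fgfrl1, Fgfr2 and Fgfr4, and the ranges of no neighbours overlapped. At 18 months the order was Fgfr1, Fgfr2, Fgfrl1, Fgfr3 and Fgfr4, in which Fgfr2 and Fgfrl1 overlapped. The sum over the 5 receptor genes was 239.9, 199.9 and 249.6 FPKM in young cartilage and 29.25, 21.1 and 20.86 FPKM in aged cartilage. Fgfr3 made up 29.8%, 31.3% and 36.1% of it at 2 months and 16.5%, 9.05% and 10.4% at 18 months. The share of Fgfr2 was 8.5% ± 0.369 at 2 months and 26.1% ± 4.01 at 18 months (SD, n = 3 each). Fgfr1 held 44.6% ± 3.33 and 38.8% ± 1.94, and Fgfrl1 14.5% ± 0.217 and 23.1% ± 1.74. The shares of Fgfr2 and Fgfrl1 were higher and those of Fgfr3 and Fgfr1 were lower at 18 months without overlap. For Fgfr1 the gap was narrow, with 40.8% in 2-month replicate 3 and 40.6% in 18-month replicate 1. In the sum over Fgfr1 to Fgfr4 alone, without Fgfrl1, the Fgfr1 shares overlapped. They were 55.0%, 53.9% and 47.6% at 2 months and 51.5%, 48.7% and 51.2% at 18 months.

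**Figure D3:**
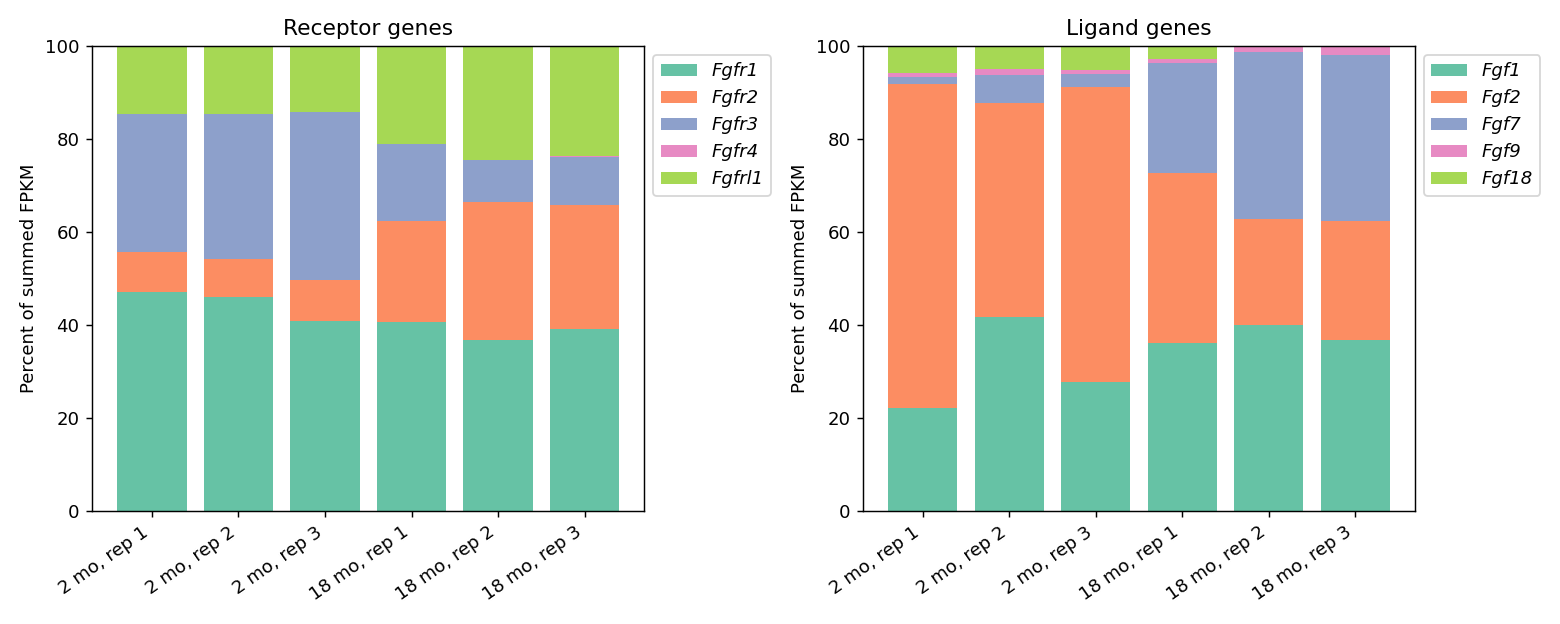
Share of each gene in the summed FPKM of the 5 receptor genes and of the 5 ligand genes, in percent, with 1 stacked bar per library. The part of Fgfr3 is smaller and that of Fgfr2 larger in the aged libraries, and among the ligands Fgf7 takes 23.6% to 35.9% of the aged sum and 1.5% to 5.9% of the young sum.

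The Fgfr3 to Fgfr1 ratio put these shares into a single value per library. On the log2 scale of FPKM plus 0.1 it was −0.66, −0.56 and −0.17 in the young libraries and −1.28, −1.97 and −1.86 in the aged libraries. The aged ratios were all lower, with a difference of means of −1.24 (two-sided exact permutation p = 0.1, the smallest that 3 libraries against 3 allow, and 0.111 adjusted over the 10 ratios computed). Among the ligands, the summed FPKM of the 5 genes was 31.48, 19.2 and 34.72 at 2 months and 8.925, 6.583 and 5.98 at 18 months. Fgf2 held 59.8% ± 12.3 of it in young and 28.3% ± 7.29 in aged cartilage, Fgf1 30.5% ± 10.1 and 37.6% ± 2.13, and Fgf7 3.36% ± 2.28 and 31.7% ± 7.05 (SD, n = 3 each).

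The FGF genes were also set beside the chondrocyte markers, whose median log2 fold change was −6.50. Each gene's counts were divided by the summed counts of the 16 markers in the same library, and 8 of the 9 genes had a ratio at 18 months that lay above the young range in each library. The same held for 94.6% of all genes tested, since the markers themselves fell so far, and the count is therefore no result about the FGF genes. Only the sizes are described. Exact permutation tests were run on these ratios and entered the adjustment over the 10 ratios, but they are not read as results. For Fgfr3 the log2 ratio was −6.30, −7.13 and −6.23 at 2 months and −5.44, −5.34 and −5.18 at 18 months, a difference of 1.23. The differences were 2.51 for Fgfr1, 2.94 for Fgf2, 3.38 for Fgfrl1, 4.31 for Fgfr2, 4.38 for Fgf1, 4.61 for Fgf9 and 7.46 for Fgf7. Because the divisor fell, a difference above 0 does not mean that a gene rose. All of these genes except Fgf7 fell on the counts, where the median log2 fold change over all genes was −0.02. A typical size of the ratio over all genes was not computed. Within a library the divisor is the same for every gene. The differences therefore restate the fold changes on the counts, shifted together, and order the genes in the same way. For Fgf18 the ratio rested on the 0.5 added to counts of 0, and the difference was −0.05.

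**Figure D4:**
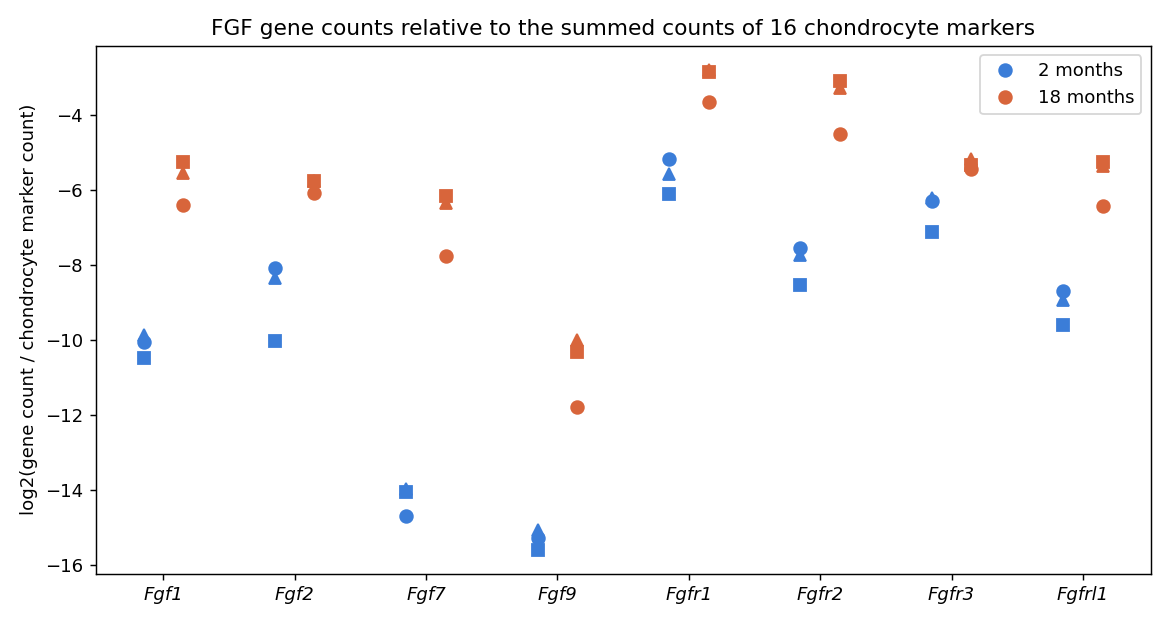
Log2 ratio of each FGF gene's counts to the summed counts of the 16 chondrocyte markers, with a point for each library and the ages side by side. Aged libraries lie above the young libraries for the 8 genes drawn, by 1.23 for Fgfr3 and by 7.46 for Fgf7. The marker counts themselves fell, and of these genes only Fgf7 rose on the counts. Fgf18 is left out because 2 of its aged libraries had 0 counts.

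Windows before the annotated start sites were taken from RefSeq on the build GRCm38.p6 for 8 of the 10 genes, and 4 of them, chosen after their values were seen, are shown. Fgfr3 is the receptor gene with the largest fall, Fgfrl1 has the window with the most GC boxes, Fgf18 is the ligand missing from 2 aged libraries, and Fgf7 is the ligand that rose. Capitals mark the letters of the GC box, GGGCGG, and of ACAAAG, a sequence that SOX factors can bind, each searched on both strands, and no match overlaps another in the sequences shown. The Fgfr3 window, chr5:33721474-33721673 on the plus strand, is the stretch before the first annotated exon; the others are Fgfrl1 at chr5:108693979-108694228 on the plus strand, Fgf18 at chr11:33147401-33147650 on the minus strand and Fgf7 at chr2:126034408-126034657 on the plus strand.
Fgfr3: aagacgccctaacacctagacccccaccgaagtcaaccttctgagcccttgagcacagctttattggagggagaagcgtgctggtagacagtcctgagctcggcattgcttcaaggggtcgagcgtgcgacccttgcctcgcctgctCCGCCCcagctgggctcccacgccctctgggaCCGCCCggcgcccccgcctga
Fgfrl1: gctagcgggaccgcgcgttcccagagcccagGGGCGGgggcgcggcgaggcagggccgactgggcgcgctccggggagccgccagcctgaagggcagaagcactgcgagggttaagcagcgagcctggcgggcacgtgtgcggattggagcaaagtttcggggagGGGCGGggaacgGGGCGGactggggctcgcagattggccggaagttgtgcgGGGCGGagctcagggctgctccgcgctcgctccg
Fgf18: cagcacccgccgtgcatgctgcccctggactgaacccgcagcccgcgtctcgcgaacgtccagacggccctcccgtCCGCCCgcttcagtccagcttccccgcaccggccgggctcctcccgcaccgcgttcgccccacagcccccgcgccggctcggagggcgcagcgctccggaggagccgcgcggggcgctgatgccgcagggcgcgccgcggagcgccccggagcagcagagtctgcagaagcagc
Fgf7: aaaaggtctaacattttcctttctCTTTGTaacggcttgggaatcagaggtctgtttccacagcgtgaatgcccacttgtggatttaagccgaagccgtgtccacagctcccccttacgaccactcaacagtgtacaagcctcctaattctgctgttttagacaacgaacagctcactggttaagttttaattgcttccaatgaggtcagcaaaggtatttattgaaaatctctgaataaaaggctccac

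The Fgfrl1 window held 4 GC boxes, the Fgfr3 stretch 2, Fgf18 1 and Fgf7 0. The full window of 250 bases had a GC content of 73.6% and 30 CpG sites in Fgfrl1, 77.2% and 37 in Fgf18 and 43.6% and 6 in Fgf7. Over all 32851 windows the median GC content was 52.4% with 6 CpG sites, and 32.7% of the windows held GGGCGG, 16.5% ACAAAG, 10.7% ACAATG and 12.4% TATAAA. Fgf7 alone of the 8 genes held ACAAAG, once, and none held ACAATG or TATAAA in its window. Fgfr2, which also fell, had 44.0% GC and no GC box, so that low GC content was found with either direction.

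Other genes of the pathway moved in both directions, and their counts are read against the 21.3% of all genes that fell and the 14.9% that rose. Among the heparan sulfate core proteins and enzymes, 13 of 23 tested genes fell and 1 rose, with a median log2 fold change of −1.53. Hspg2, which encodes perlecan, had 38623, 49162 and 40205 counts at 2 months and 3208, 1943 and 1982 at 18 months (log2 fold change −4.44, SE 0.23, edgeR adjusted p = 0.000706). Gpc6, a glypican, fell from 7419, 3117 and 4612 counts to 337, 178 and 236 (−4.65, SE 0.47, edgeR adjusted p = 0.00157). Hs6st1, which adds sulfate to heparan sulfate, was the 1 gene that rose, from 1358, 2219 and 1193 counts to 4115, 4593 and 4597 (1.24, SE 0.21, edgeR adjusted p = 0.00556), and with TPM its log2 fold change was 0.90, short of the fold limit.

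Of the signal transducers between the receptor and MAP kinase, 4 of 23 tested genes were higher and 5 lower, with a median of 0.11, and these shares were close to those over all genes. Gab1, an adaptor bound by FRS2 complexes, fell from 9269, 6107 and 9738 counts to 1548, 1330 and 1343 (log2 fold change −2.87, SE 0.26, edgeR adjusted p = 0.00127). Frs3, a relative of the receptor adaptor FRS2, fell from 390, 333 and 307 counts to 102, 66 and 67 (−2.42, SE 0.27, edgeR adjusted p = 0.0019). Cbl, a ubiquitin ligase that turns over activated receptors, rose from 2375, 6029 and 2954 counts to 16017, 13497 and 13458 (1.68, SE 0.31, edgeR adjusted p = 0.00692). The young replicate 2, with the highest neutrophil share, had the highest counts of Cbl among the young libraries. This was not particular to Cbl. On FPKM the same library was the highest young library for Cbl, for Spry1, Hs6st1 and Fgf7, which rose, and for Hspg2, which fell. It was the lowest young library for Gab1 and, by a small margin, for Spred1 (18.68, 18.34 and 18.77 FPKM), which both fell. The part of cell makeup in these genes was not tested.

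Feedback inhibitors and response genes, whose transcription follows FGF signalling in many cells, had 6 of 14 tested genes lower, 1 higher and a median of −1.22. Etv5, an ETS transcription factor gene, went from 3370, 3007 and 2066 counts to 797, 589 and 444 (log2 fold change −2.49, SE 0.27, edgeR adjusted p = 0.00181). Etv1, Etv4, Spry4, Spred3 and Dusp6 lay outside the rule for naming genes and are given after their values were seen. Etv1 had a log2 fold change of −2.26 and Etv4 of −2.53. Etv4 had 170 to 300 counts at 2 months and 25 to 99 at 18 months, and its call was lost without 2-month replicate 1 or 3 or 18-month replicate 2 or 3 (edgeR adjusted p from 0.0514 to 0.0665). Spred1, an inhibitor of RAS signalling, fell from 6964, 7280 and 7151 counts to 3325, 2888 and 3059 (−1.48, SE 0.10, edgeR adjusted p = 0.000819). The inhibitors of the Sprouty and Spred families did not share a direction. Spry4 (log2 fold change −1.46) and Spred3 (−1.25) fell, whereas Spry1 rose from 173, 406 and 182 counts to 971, 1130 and 1367 (1.96, SE 0.35, edgeR adjusted p = 0.00655). Dusp6, the phosphatase of ERK, had 1027, 2072 and 650 counts in young and 2733, 2149 and 2085 in aged libraries, and it did not pass (log2 fold change 0.66, SE 0.37, edgeR adjusted p = 0.179).

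Of 17 further FGF ligand genes, 12 were in the table, 7 could be tested and 3 rose, all from counts near 0 in young cartilage. Their mean levels were below the minimum set for naming genes, and they are named here after their values were seen. Fgf3 had 0, 8 and 0 counts at 2 months and 213, 158 and 204 at 18 months (log2 fold change 5.90, SE 1.21, edgeR adjusted p = 0.0102). Without 2-month replicate 2 every young library of Fgf3 is at 0, and the fitted value of 10.46 then depends on the prior count. Fgf23, the phosphate-regulating hormone made by osteocytes and other bone cells, had 0 counts in each young library and 48, 73 and 85 in the aged libraries, at least 20.1-fold higher than a floor of 3 counts per young library. Fgf10 had 0 counts in each young library and 22, 20 and 38 in the aged ones, at least 7.77-fold higher. The osteoblast and osteocyte marker share was lower in the aged libraries. That list had 3 of 10 genes lower, against 21.3% of all genes, and a median log2 fold change of −0.535. Its most abundant gene, Ibsp, went from 154547, 196182 and 172300 counts to 25342, 25258 and 25374, which weighs on the share. The source of the Fgf23 reads was not tested. Fgf17 and Fgf14, also named after their values were seen, were not called and had lower counts in most aged libraries. Fgf17 had 32, 21 and 42 counts at 2 months and 8, 0 and 0 at 18 months (log2 fold change −3.85, SE 1.31, edgeR adjusted p = 0.0521), and Fgf14 had 11, 92 and 75 and then 16, 0 and 1 (−3.65, SE 1.44, edgeR adjusted p = 0.0786). The median of the 7 genes was 0.53, also with Fgf10 and Fgf23 at their bounds. It leaves out Fgf8, Fgf12, Fgf20, Fgf21 and Fgf22, which had too few counts to be tested and are named after their values were seen. These untested genes had 0 counts in each aged library and 0 to 22 in the young libraries. The 3 genes that rose passed the count filter through their aged libraries, so the tested genes do not show a direction for the further ligands as a whole. Of the co-receptors and binding proteins only Fgfbp3 could be tested, and its 145, 159 and 131 counts at 2 months and 109, 64 and 71 at 18 months gave a log2 fold change of −1.11 (SE 0.28, edgeR adjusted p = 0.0209), a call lost without 2-month replicate 1 or 3 or 18-month replicate 2 or 3 (edgeR adjusted p from 0.0576 to 0.0786). The klotho gene Kl, the co-receptor for FGF23 and also named after its values were seen, had 8, 8 and 4 counts in young and 0 in each aged library and was not tested.

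**Figure D5:**
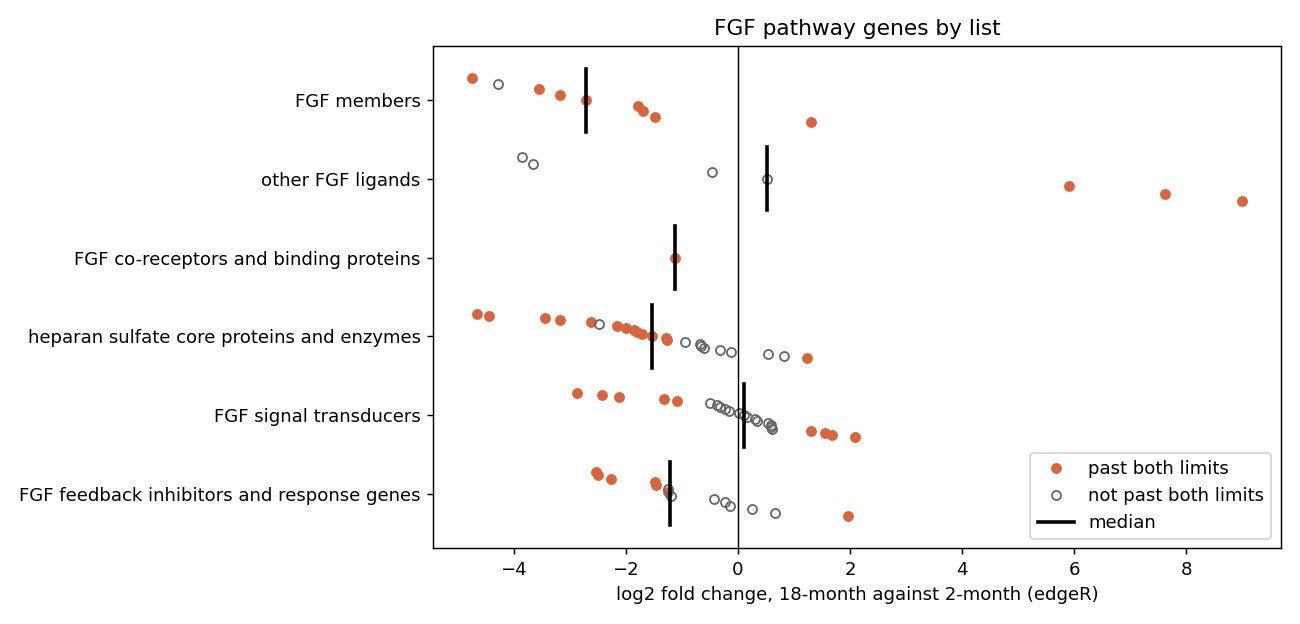
Log2 fold change at 18 months against 2 months of the 9 tested FGF genes and of every tested gene in the 5 other lists of the FGF pathway, with a point for each gene, filled where it passed both limits, and a line at each list's median. Most heparan sulfate genes lie below 0, the signal transducers lie on both sides around a median of 0.11, and 3 of the 7 other ligand genes lie above 5. The points of Fgf10 and Fgf23 depend on the prior count because every young library is at 0.

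Each tested gene was compared with 13900 others, with a mean FPKM of at least 1, for the likeness of their patterns over the 6 libraries, measured as the root mean square difference in centred log2 CPM. The libraries share their depth and cell makeup, and the likeness is a description. Fgfrl1 was nearest to Tcf7l2, a Wnt pathway transcription factor gene, at 0.0445, and to Zfp783 at 0.0546. Fgfr2 was nearest to Socs2, an inhibitor of cytokine signalling, at 0.0681, and to Nbeal1 at 0.0712. Fgfr1 was nearest to Plcd1 at 0.0872 and the homeobox gene Hoxc8 at 0.102, and Fgfr3 to Has2, a hyaluronan synthase gene, at 0.11 and Igdcc4 at 0.155. Of the ligands, Fgf1 was nearest to Kifap3 at 0.116 and Rad9b at 0.121, Fgf2 to Cst3, the cystatin C gene, at 0.128 and Fam129b at 0.13, and Fgf7 to Gm20735 at 0.111 and Nfatc2ip at 0.113. Of the ligands with few counts, Fgf9 was nearest to Ppp4r1l-ps at 0.0929 and Tmem67 at 0.114, and Fgf18 to Gm14206 at 0.16 and Itih2 at 0.213.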

How the data were processed

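RNA of articular cartilage was sequenced with strand-specific, poly(A)-selected, paired-end libraries carrying unique molecular identifiers. The submitters' processing notes list cutadapt 1.9, HISAT2 2.0.4, UMI-tools, StringTie 1.3.4d, DESeq2 and edgeR. The genome build and the use of strand in counting are not given in the sources used here; 91.2% of the table's genes found in GENCODE M21 had the same coordinates, and positions are given on GRCm38. The deposited counts are whole numbers per gene and library without normalization. The deposited FPKM values were scaled by the authors for transcript length and library fragments. Library totals were 48171507 to 59085179 counts, and 0 columns of values per library were left unused.

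Counts of the 6 libraries were fitted with edgeR 4.0.16 under R 4.3.3 (TMM, filterByExpr, quasi-likelihood test, no replicate block), with Benjamini-Hochberg adjustment over the 20397 genes that passed the filter. A gene was called at an adjusted p below 0.05 and a log2 fold change above 1 or below −1. Standard errors were derived from the F statistic, as the size of the log2 fold change over its square root. The edgeR, limma and DESeq2 fits were run on simulated counts in which few genes changed and cell makeup did not. That run checked the code and does not show how the fits behave with shifts as wide as those seen here. Alternatives were median-of-ratios size factors, no filter, DESeq2 1.42.0, limma 3.58.1 on log2(FPKM + 0.1), on log2(FPKM + 1) and on TPM rescaled from FPKM (mean FPKM of at least 0.1), a test against a fold change of 2, a replicate block and leaving out each library. Sequence windows were 250 bases before RefSeq start sites, and protein sequences were not used here.

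The genes and lists were chosen with earlier results of these data known. Named were all 10 FGF genes; of each pathway list, the genes with the 2 largest rises and 2 largest falls among those past both limits with a mean FPKM of at least 1; of each marker list, Col2a1, Acan and the gene with the highest mean FPKM; and for each tested FGF gene the 2 genes most like it. A gene of the signal transducer list is not reported here, and genes named outside this rule are marked as chosen after their values were seen. The marker genes with the highest mean FPKM were Chad for chondrocytes, S100a9 for neutrophils, Hbb-bs for erythroid cells, Cd79b for B lymphocytes, Tnni2 for skeletal muscle, Ibsp for osteoblasts and osteocytes, Pecam1 for endothelium, Fabp4 for adipocytes and Prg4 for synovial and tendon fibroblasts. Of the lists not given with the report, B lymphocyte markers took 0.00103% to 0.0282% of the counts at 2 months and 0.0189% to 0.0218% at 18 months, skeletal muscle markers 0.0202% to 0.0251% and 0.00087% to 0.00159%, endothelial markers 0.00145% to 0.0336% and 0.0232% to 0.0254%, and adipocyte markers 0.000988% to 0.0037% and 0.0115% to 0.0163%.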

Additional observations from a re-analysis of the deposited data

How the results depend on the processing

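Every FGF gene kept its direction in the fits tried. Of the genes whose call depended on the setting, Fgf7 had a log2 fold change of 0.81 with limma on log2(FPKM + 1), 1.01 on TPM and 1.31 in the test against a fold change of 2, and between 1.04 and 1.55 with a library left out, and lost its call in the first 3. Fgf9 lost its call with limma on log2(FPKM + 0.1) (−0.87) and log2(FPKM + 1) (−0.20), in the test against a fold change of 2 (−1.47) and with the replicate block (−1.47, edgeR adjusted p = 0.055), and lay between −1.61 and −1.33 with a library left out. Fgf18 gained a call with DESeq2 (−4.29), limma on log2(FPKM + 0.1) (−3.37), log2(FPKM + 1) (−1.22) and TPM (−4.75), and lay between −9.81 and −3.72 with a library left out. An alternative chosen after seeing the data left out 2-month replicate 2 and 18-month replicate 1 together; it gave 1.59 for Fgf7 and −10.08 for Fgf18, which is no bound since both remaining aged libraries are at 0, and called all 9 FGF genes. The number of FGF genes called was 6 in the test against a fold change of 2 and 7 with the replicate block and with limma on log2(FPKM + 1). With a library left out 9 or 10 FGF genes were tested and 6 to 9 called. Over all genes 7401 were called in the main fit and 4033 against a fold change of 2. The replicate block called 6032, limma on log2(FPKM + 1) 5258, and the fits with a library left out 5640 to 9583. Of all genes, 3047 rose and 4354 fell in the counts, against 3109 and 5819 on TPM and 5007 and 4576 without 2-month replicate 2.

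Of the 7 other ligand genes tested, 3 were called in edgeR, all higher, 5 with DESeq2 (3 higher, 2 lower) and 1 with the replicate block. With a library left out 8 to 10 were tested and 4 to 7 called, 1 to 3 of them lower. The same fits called 5640 to 9583 of 21356 to 21536 genes. With both libraries out 7 of 8 were called (4 higher, 3 lower), beside 46.8% of all genes. The changing number tested and the changing background both enter these counts. Calls among co-receptors and binding proteins were 1 of 1 tested in edgeR, 0 with limma on log2(FPKM + 0.1) and 0 with the replicate block. With a library left out 1 or 2 were tested and 0 to 2 called, and with both out 2 of 2. The causes were not tested. Receptor shares over Fgfr1 to Fgfr4 alone, without Fgfrl1, were 52.2% and 50.5% for Fgfr1, 9.95% and 34.0% for Fgfr2 and 37.9% and 15.5% for Fgfr3 at 2 and 18 months. The Fgf18 ratio to chondrocyte markers lay between −1.33 and 0.60 with a library left out and changed sign in 4 of 6 such fits. Libraries with the same replicate number did not deviate together (r = 0.0337, 0.0442 and −0.0241 across genes), so no pairing by number was seen. With 3 libraries per age this check cannot exclude a pairing or a shared batch. Depth limits Fgfr4, Fgf9 and Fgf18, which rest on few counts.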
